A study of Mus musculus with 15 samples.

Results

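The interferon response genes described here are 40 genes that respond to type I or type II interferon. Membership rests on a list of gene names. By role they were 3 sensors, 4 transcription factors, 2 genes of the ISG15 modifier system, 20 antiviral effectors, 5 interferon-inducible GTPases, 2 chemokines and 4 genes of antigen processing. A probe was found and tested for 39 of the 40, out of 15622 genes tested in all. Mx2 was not analysed here.

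RNA was measured on one-colour Agilent arrays in 15 tissues of female FVB/N mice. Hosts were wild-type mice, 7 to 9 weeks old when recruited, that received 2 intraperitoneal doses of monocrotaline, a plant alkaloid that injures the liver, at 70 mg/kg and 2 weeks apart. After a further 2 weeks, 1000000 hepatocytes of FVB/N donors carrying a human α1-antitrypsin (hA1AT) transgene were placed beneath the kidney capsule. The donors were 8 to 20 weeks old. The injured liver (host liver, 4 arrays), the kidney (host kidney, 4 arrays) and the ectopic liver tissue microdissected out of the kidney (neo-liver, 4 arrays) were sampled 250 to 300 days later, at a host age of 48 to 55 weeks, and livers of normal mice aged 20 weeks gave the control liver (3 arrays). All host tissues come from mice with monocrotaline and transplantation, although the donor hepatocytes were placed only after the last dose. Control livers had neither and were younger, so injury, age and transplantation cannot be told apart in a comparison with control liver. Host liver and control liver arrays were also on different slides, so an effect of slide cannot be told apart from these in that comparison. A normal kidney was not analysed here.

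Type I interferons act through the receptor IFNAR1 and IFNAR2, which activates a complex containing STAT2 and IRF9 that binds the interferon-stimulated response element (ISRE) in target promoters. Interferon gamma acts through IFNGR1 and IFNGR2 and the gamma-activated site (GAS) of target promoters, and IRF1 is an early product of that branch. The targets include enzymes that degrade or modify RNA, proteins that hold viruses at membranes, GTPases that attack the vacuoles of intracellular pathogens, chemokines that attract T cells, and the immunoproteasome. In liver, hepatocytes, Kupffer cells and sinusoidal endothelium all respond to interferon.

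The promoters of 13 members are shown because they carry the elements through which the family is known to be controlled, and because these members recur in the comparisons. Each stretch ends at the base before the annotated transcription start and is written 5′ to 3′ on the strand of the gene, from RefSeq on GRCm38.p6. Capitals mark the ISRE core, a pair of GAAA stretches with any 2 bases between them, searched on both strands so that it also appears as TTTC stretches, and the palindromic GAS motif TTCNNNGAA. Matches may overlap each other. The antiviral effectors and Isg15 are, in order, Isg15 at chr4:156200819-156200928 (minus strand), Ifit1 at chr19:34640769-34640888 (plus strand), Ifit3 at chr19:34583359-34583528 (plus strand), Oas1a at chr5:120907526-120907635 (minus strand), Rsad2 at chr12:26456453-26456582 (minus strand), Bst2 at chr8:71537473-71537617 (minus strand). The others are Gbp3 at chr3:142559984-142560043 (plus strand), Gbp2 at chr3:142620593-142620662 (plus strand), Irgm1 at chr11:48871421-48871470 (minus strand), Igtp at chr11:58199496-58199555 (plus strand), Cxcl10 at chr5:92348890-92349109 (minus strand), Irf1 at chr11:53769914-53770013 (plus strand), Psmb8 at chr17:34198085-34198194 (plus strand).
Isg15: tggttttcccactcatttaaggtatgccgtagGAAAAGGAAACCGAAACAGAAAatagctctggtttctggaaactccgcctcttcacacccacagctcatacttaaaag
Ifit1: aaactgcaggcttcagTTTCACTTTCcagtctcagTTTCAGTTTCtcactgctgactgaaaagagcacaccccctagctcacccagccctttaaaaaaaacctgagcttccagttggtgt
Ifit3: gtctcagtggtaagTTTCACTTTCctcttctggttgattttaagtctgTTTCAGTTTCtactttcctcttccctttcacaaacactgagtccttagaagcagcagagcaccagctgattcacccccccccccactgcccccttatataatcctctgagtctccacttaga
Oas1a: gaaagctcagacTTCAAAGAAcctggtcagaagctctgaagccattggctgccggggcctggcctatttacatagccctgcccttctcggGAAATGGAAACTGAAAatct
Rsad2: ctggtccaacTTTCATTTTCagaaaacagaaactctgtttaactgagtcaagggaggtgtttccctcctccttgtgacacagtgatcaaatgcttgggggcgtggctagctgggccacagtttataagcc
Bst2: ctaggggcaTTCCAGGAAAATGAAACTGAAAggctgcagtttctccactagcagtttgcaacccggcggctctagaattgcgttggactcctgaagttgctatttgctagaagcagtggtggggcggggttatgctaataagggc
Gbp3: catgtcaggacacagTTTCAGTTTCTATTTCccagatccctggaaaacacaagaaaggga
Gbp2: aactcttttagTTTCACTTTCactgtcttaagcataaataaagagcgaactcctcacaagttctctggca
Irgm1: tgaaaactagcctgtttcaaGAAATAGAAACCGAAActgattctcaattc
Igtp: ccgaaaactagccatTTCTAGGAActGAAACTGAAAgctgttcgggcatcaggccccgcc
Cxcl10: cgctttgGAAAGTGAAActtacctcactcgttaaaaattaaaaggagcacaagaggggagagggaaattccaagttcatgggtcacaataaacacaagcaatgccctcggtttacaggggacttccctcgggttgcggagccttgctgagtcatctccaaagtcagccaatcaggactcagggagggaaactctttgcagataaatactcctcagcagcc
Irf1: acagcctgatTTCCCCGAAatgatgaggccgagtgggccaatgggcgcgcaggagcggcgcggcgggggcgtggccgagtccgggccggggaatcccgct
Psmb8: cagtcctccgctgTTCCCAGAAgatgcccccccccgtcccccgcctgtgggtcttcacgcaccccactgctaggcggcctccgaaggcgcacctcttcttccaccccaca

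RefSeq promoters, from 250 bases before to 50 bases after a start, were found for 32 of the 40 members. The ISRE core stood in 16 of these 32 genes, against 1079 of 27025 genes (3.99%) with a promoter in the same table, and the GAS motif in 9 of 32 (28.1%) against 9.55%. Isg15 held 3 overlapping ISRE cores, which is the most of any member promoter. All 4 GTPases with a promoter held a core, and none of the 4 antigen processing genes did, whereas Psmb8 held a GAS motif 97 bases upstream of the start. Among the effectors 8 of 16 held a core. Cmpk2, Oasl1, Oasl2, Ifi44, Xaf1 and Samd9l held neither motif in this window, nor did Irf7, Irf9, Cxcl9, Psmb9, Tap1 and Ubd among the other members. A match describes the letters only.

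A level below is the log2 signal of a probe minus the 75th percentile of its array, so 0 is a probe at that percentile, and levels are compared between groups for one probe and not between genes. A difference is that of 2 group means of levels. A gene was called where limma gave an adjusted p (Benjamini-Hochberg, 15622 genes) under 0.05. The 75th percentile of the signal was 416 to 676 on neo-liver arrays, 287 to 448 on host liver, 389 to 424 on control liver and 561 to 874 on host kidney. The labels do not say that replicates are separate animals, so p-values measure the spread between these samples. Hepatocyte markers were 9805 to 14376 in summed linear signal (in units of the 75th percentile) in both liver groups, 5905 to 8831 in neo-liver and 28.1 to 48.2 in host kidney. Kidney epithelium markers summed to 603 to 1634 in neo-liver, against 2703 to 3824 in host kidney, 6.95 to 41.6 in host liver and 77 to 97.6 in control liver, with 0 of 30 below background on all neo-liver arrays and 16 of 30 in host liver. By 29 of these markers the kidney share of the neo-liver arrays 1 to 4 was 19.8%, 49.3%, 21.3% and 32.5%. In bulk tissue, fewer cells of a type and less RNA per cell cannot be told apart.

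**Figure D1:**
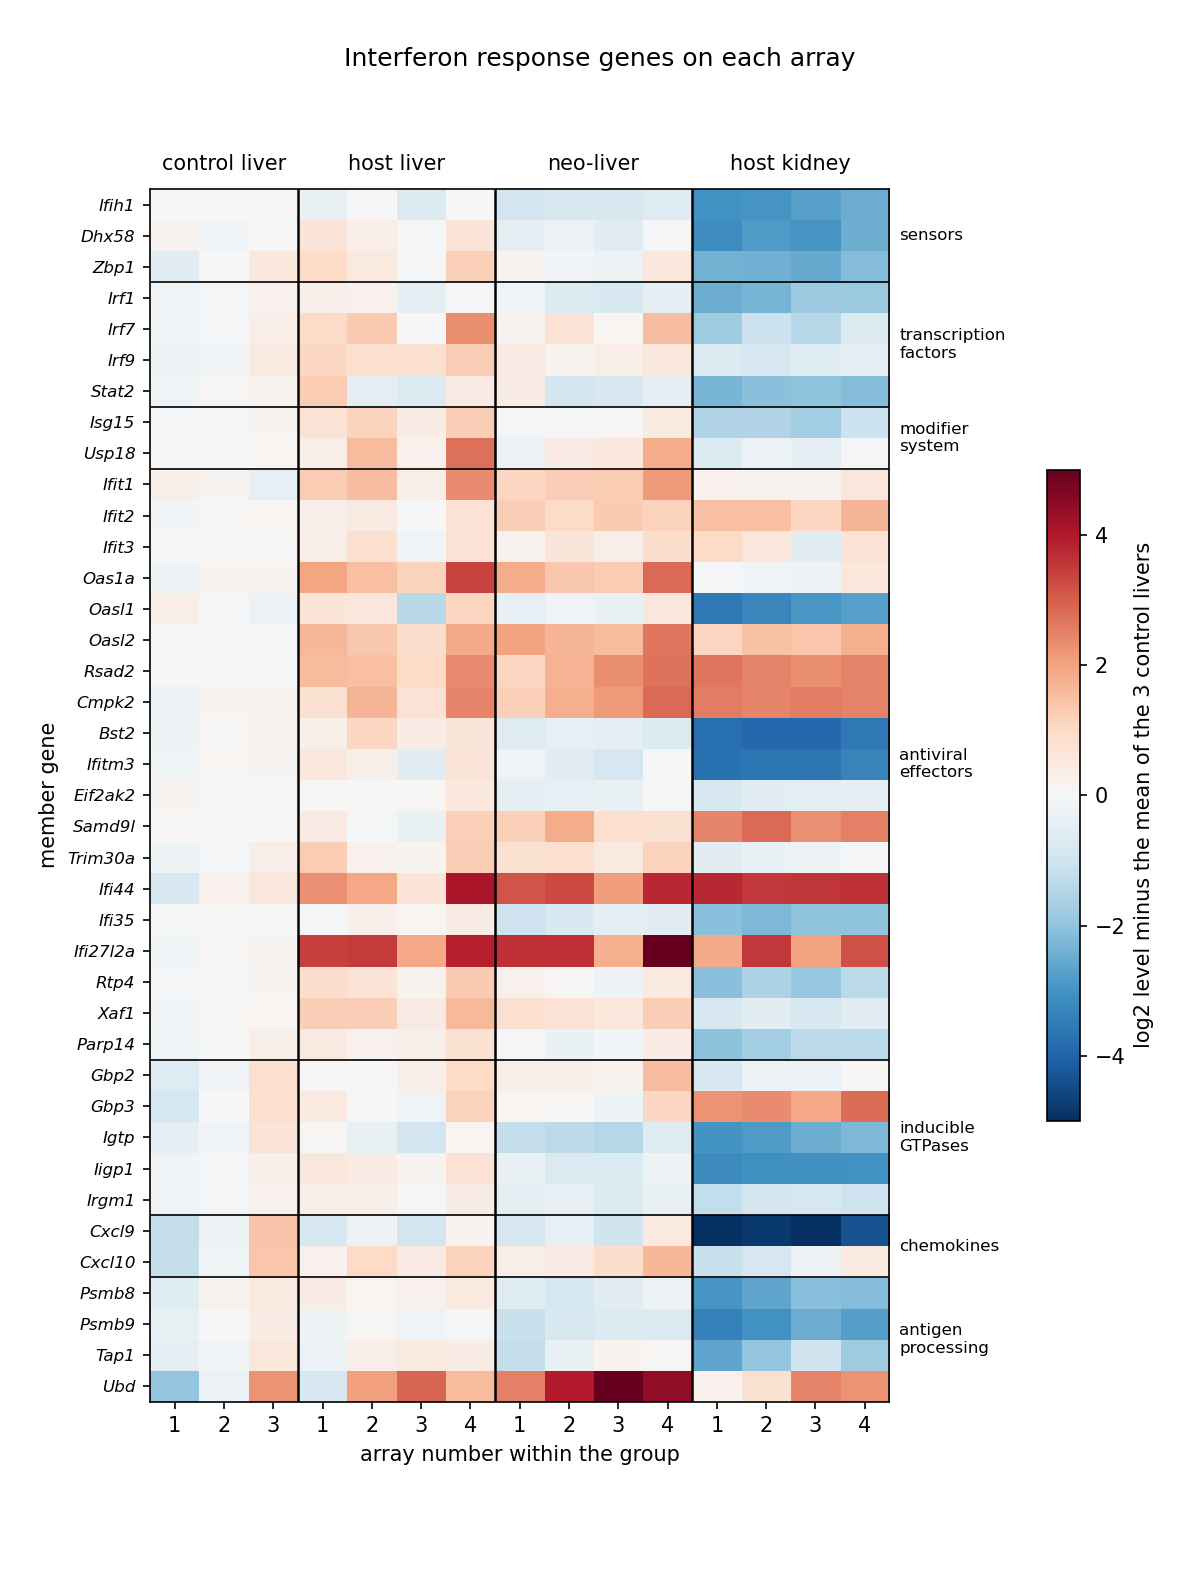
Each row is a member and each column an array, grouped by tissue; colour is the log2 level minus the mean of the 3 control livers, with the scale ending at -5 and 5, and lines divide the roles. Many rows are blue in host kidney, antiviral effectors such as Ifi27l2a, Ifi44, Rsad2 and Cmpk2 are red in host liver, neo-liver and host kidney, and the array numbered 4 is the reddest of its tissue for most members.

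Antiviral effectors were higher in the injured host liver than in control liver, and the GTPases, chemokines and antigen processing genes gave no call. Of 39 members, 12 rose (30.8%, against 13.4% of all genes tested) and 0 fell (11.2% of all genes), where 24.7% of all genes were called in either direction. At an unadjusted p under 0.05 the counts were 16 higher and 0 lower. The median difference was 0.42 over the members (0.67 without control array 3) and 0.08 over all genes. The risers were 10 of 19 tested effectors, 1 of 4 transcription factors and 1 of 2 modifier genes. The groups of all 12 did not overlap, nor did those of 94% of all genes called in this comparison.

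Ifi27l2a, a small interferon-induced membrane protein of unsettled function, showed the largest rise. Its level was -0.85, -0.60 and -0.51 on the control liver arrays and 2.78, 2.83, 1.28 and 3.24 on the host liver arrays, so even the lowest host array, number 3, lay above every control. The difference was 3.18 ± 0.70 (SE), a 9.08-fold rise (adjusted p 0.00611). Ifi44, an interferon-induced cytoplasmic protein, stood at -4.34, -3.32 and -2.97 in control liver and at -1.27, -1.60, -2.84 and 0.52 in host liver. It rose by 2.25 ± 0.61 (adjusted p 0.0175), the host arrays being spread over a wide range with number 4 highest and number 3 just above the highest control. Without control array 1, which was the lowest, its call was lost (1.85, adjusted p 0.0871).

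The oligoadenylate synthetase family makes the signal that activates RNase L. Oas1a had levels of 0.12, 0.49 and 0.50 in control liver and 2.33, 1.88, 1.54 and 3.76 in host liver, a rise of 2.01 ± 0.47 or 4.02-fold (adjusted p 0.00832). The groups stood well apart. Oasl2, an oligoadenylate synthetase-like relative, went from -2.12, -2.00 and -2.10 to -0.41, -0.74, -1.19 and -0.18, a rise of 1.44 ± 0.28 (adjusted p 0.00272). Oasl1, which is known to restrain translation of Irf7, gave no call (0.22 ± 0.46, adjusted p 0.757), with host array 3 at 0.98 and the other host arrays at 2.91 to 3.45.

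Rsad2 (viperin), which makes a chain-terminating nucleotide, was tightly grouped in control liver at -1.63, -1.57 and -1.58 and stood at -0.01, -0.09, -0.60 and 0.79 in host liver. The rise was 1.61 ± 0.34 (adjusted p 0.00477), and no host array came near the controls. Its genomic neighbour Cmpk2, a nucleotide kinase that supplies its substrate, went from -3.48, -3.05 and -3.08 to -2.43, -1.5, -2.46 and -0.78, a rise of 1.41 ± 0.40 (adjusted p 0.0206). Host arrays 2 and 4 carried most of that rise. Leaving out control array 1 ended the Cmpk2 call (1.27, adjusted p 0.084), and so did leaving out control array 3 (1.47, adjusted p 0.0504).

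The other effectors that rose were Ifit1 (1.37 ± 0.38), which binds RNA that lacks a host cap, Xaf1 (1.12 ± 0.23), a pro-apoptotic protein, the receptor chaperone Rtp4 (0.76 ± 0.24) and tetherin, Bst2 (0.58 ± 0.18). Bst2 holds budding virions at the cell surface. Of these, Xaf1 kept its call whichever single array was left out. The Ifit1 call was lost without control array 2 (1.43, adjusted p 0.0517) or 3 (1.16, adjusted p 0.0901). Bst2 was lost without host array 2 or 4 or control array 1 or 2 (0.42 to 0.62, adjusted p 0.0586 to 0.15), and Rtp4 without any control array or host array 1 or 4 (0.58 to 0.83, adjusted p 0.0667 to 0.117). In a fit of these 2 groups alone, 7 of the 12 calls remained and Bst2, Cmpk2, Ifi44, Ifit1 and Rtp4 were lost. Ifit2 (0.37 ± 0.18), Ifit3 (0.42 ± 0.32), Trim30a (0.71 ± 0.28) and Samd9l (0.29 ± 0.32) were among the 9 effectors without a call. The probes of Samd9l and of the sensor Ifih1 disagreed in sign here.

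Isg15, the ubiquitin-like modifier itself, had levels of 2.74, 2.77 and 2.96 in control liver and 3.55, 3.95, 3.21 and 4.05 in host liver. All 4 host arrays were above the controls, a rise of 0.87 ± 0.20 or 1.82-fold (adjusted p 0.00884). Usp18, which removes ISG15 and blocks IFNAR2 signalling, did not pass the test (1.23 ± 0.55, adjusted p 0.123), although the groups did not overlap. Its host arrays ran from -1.05 to 1.52.

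Among the transcription factors, Irf9, the DNA-binding part of the type I complex, stood at 1.80, 1.86 and 2.48 in control liver and 3.08, 2.89, 2.85 and 3.28 in host liver. It rose by 0.98 ± 0.17 (adjusted p 0.00178), with a narrow host range. Irf7, the amplifier of interferon alpha genes, was at -1.59, -1.47 and -1.02 and -0.39, -0.04, -1.34 and 0.98. Host array 3 lay inside the control range, and the difference of 1.16 ± 0.47 was not called (adjusted p 0.0864). Stat2 was at 2.91, 3.18 and 3.32 in control liver and 4.42, 2.70, 2.42 and 3.55 in host liver. Host arrays 1 and 4 were above and 2 and 3 below the controls, so the difference was small (0.13 ± 0.40, adjusted p 0.838). Irf1 overlapped fully, at 4.18, 4.22 and 4.55 against 4.57, 4.51, 3.88 and 4.22 (-0.02 ± 0.21, adjusted p 0.962).

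The sensors, GTPases, chemokines and antigen processing genes among the members gave no call in this comparison. Cxcl10, a chemokine for T cells, was at -0.52, 0.45 and 2.05 in control liver and 0.88, 1.65, 1.07 and 1.82 in host liver. The host arrays fell within the wide range of the controls (0.70 ± 0.54, adjusted p 0.374). Psmb8, a catalytic subunit of the immunoproteasome, was at 2.72, 3.49 and 3.76 and 3.70, 3.41, 3.53 and 3.81, where control array 1 alone stood low (0.29 ± 0.25, adjusted p 0.428). The 5 GTPases differed by -0.30 (Igtp) to 0.45 (Iigp1). The 3 sensors differed by -0.24 (Ifih1) to 0.64 (Zbp1). Another probe of Zbp1 gave 1.23. For neo-liver minus control liver that probe gave 0.79 and the probe used here 0.07. Macrophage and Kupffer cell markers (14 of 15 tested) summed to 222 to 398 in host liver and 158 to 264 in control liver, with 1 higher and 2 lower, and B and plasma cell markers (8 of 12 tested) to 3.07 to 5.89 against 1.25 to 1.46, with 5 higher. Monocyte and neutrophil markers (8 of 12 tested) summed to 163 to 339 against 162 to 178, with 3 higher, and conventional dendritic cell markers (8 of 10 tested) to 2.24 to 3.33 against 1.43 to 2.0, with 4 higher. Plasmacytoid dendritic cell markers (10 tested) summed to 252 to 350 against 310 to 333, with 5 higher and 1 lower, and endothelial markers (12 tested) to 143 to 229 against 123 to 130, with 2 higher. Their part in the rise of the effectors was not tested.

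**Figure D2:**
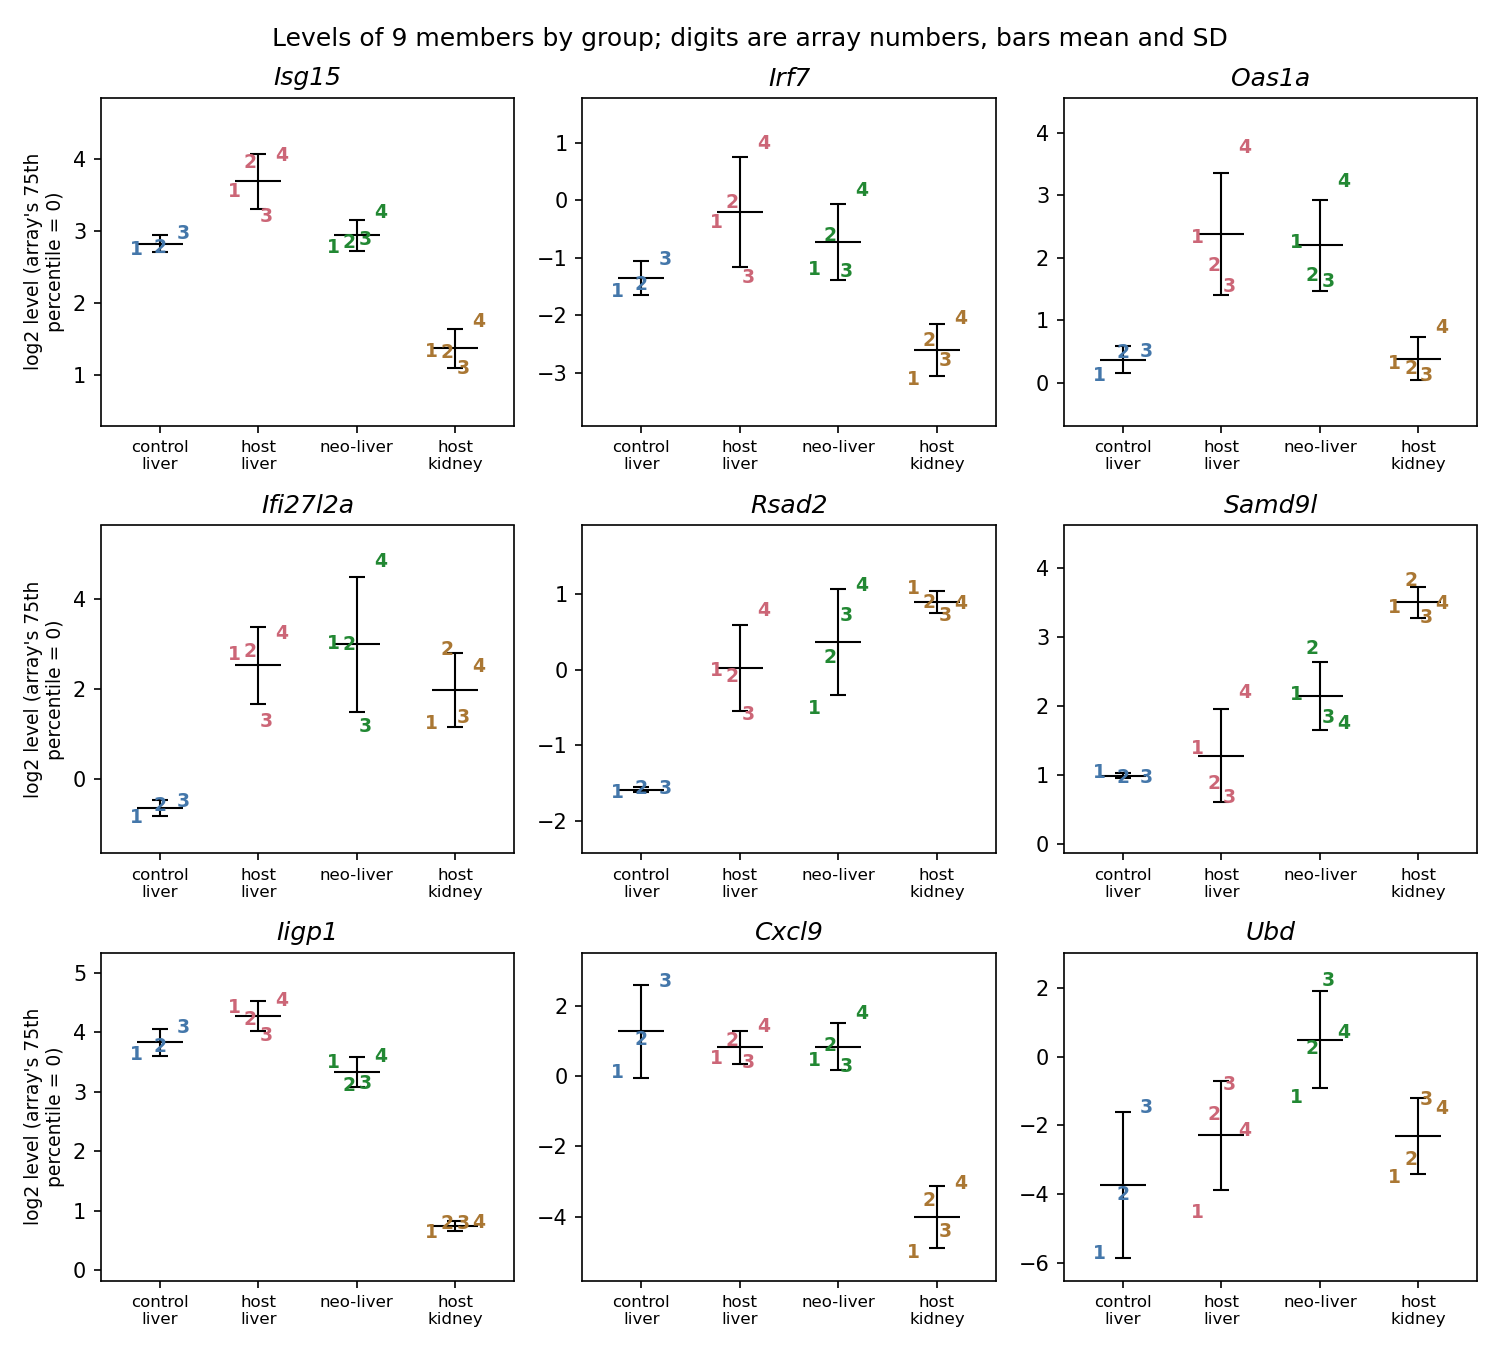
Log2 level of 9 members (vertical axis, 0 is the 75th percentile of the array) in the 4 groups; each digit is 1 array, printed as its number, and bars give the mean and SD over 3 control livers or 4 arrays of the other groups. Isg15, Oas1a, Ifi27l2a and Rsad2 stand higher in host liver than in control liver with no overlap, Iigp1 and Cxcl9 are lowest in host kidney, Samd9l is highest in host kidney, and Ubd is spread widely within every group.

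In neo-liver, 11 of 19 effectors were higher than in control liver and 3 of 5 GTPases were lower, but these 3 falls were lost with quantile normalization. Of 39 members 12 rose (30.8%, against 20.4% of all genes) and 7 fell (17.9%, against 29.8%). The median difference was 0.12 and did not hold its size: it was 0.33 without control array 3, 0.077 without control array 1, 0.24 without neo-liver array 3 and 0.0034 without neo-liver array 4. Over all genes it was -0.15. The risers were 11 of 19 effectors and Ubd, and the 7 that fell were 3 of 5 GTPases, the effectors Bst2 and Ifi35, the sensor Ifih1 and Psmb9. In either direction 50.2% of all genes were called. The groups of all 19 called members did not overlap, nor did those of 95.5% of all called genes. This comparison uses the same 3 control livers as the one before, so the 2 are not independent, and their values for a member are given side by side. Neo-liver and control liver arrays shared a slide, so these values are within 1 slide.

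The neo-liver levels of Ifi27l2a were 3.01, 2.99, 1.16 and 4.85, all above the controls, with array 4 highest and array 3 lowest. The rise over control liver was 3.65 ± 0.70 (adjusted p 7.90e-04), beside 3.18 for host liver. Ifi44 stood at -0.40, -0.24, -1.45 and 0.23 and rose by 3.08 ± 0.61 (adjusted p 9.70e-04), beside 2.25 for host liver. In both genes array 3 was the lowest of neo-liver and array 4 the highest.

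Oasl2 was at -0.06, -0.37, -0.51 and 0.61 in neo-liver, a rise of 1.99 ± 0.28 (adjusted p 6.12e-05), beside 1.44 for host liver. Cmpk2 was at -1.99, -1.40, -1.07 and -0.38, a rise of 1.99 ± 0.40 (adjusted p 9.97e-04), and Rsad2 was at -0.51, 0.16, 0.71 and 1.11, a rise of 1.96 ± 0.34 (adjusted p 3.73e-04). In this neighbouring pair array 1 was lowest and array 4 highest. Oas1a stood at 2.24, 1.72, 1.62 and 3.22, 1.83 ± 0.47 above control liver (adjusted p 0.00549). Ifit1 (1.42 ± 0.38), Ifit2 (1.16 ± 0.18), Samd9l (1.16 ± 0.32), Xaf1 (0.82 ± 0.23) and Trim30a (0.79 ± 0.28) rose less. Trim30a lost its call without neo-liver array 1, 2 or 4 or control array 1 or 2 (0.67 to 0.80, adjusted p 0.0519 to 0.118).

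Ubd (FAT10), a ubiquitin-like protein induced by interferon gamma and tumour necrosis factor, also rose. It was at -5.71, -4.01 and -1.48 in control liver, -4.53, -1.67, -0.82 and -2.13 in host liver, -1.2, 0.23, 2.21 and 0.71 in neo-liver and -3.51, -2.98, -1.24 and -1.5 in host kidney. It was well above background on 2 of 3 control, 3 of 4 host liver, and all 8 neo-liver and kidney arrays. Every neo-liver array exceeded every control liver array, and array 1 was the lowest in each host tissue. The difference from control liver was 4.22 ± 1.08 (adjusted p 0.00534). Its size rests in part on control array 1, where the probe was not well above background.

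The transcription factors, Isg15 and the chemokines did not pass the test between neo-liver and control liver. Isg15 was at 2.77, 2.85, 2.88 and 3.25, overlapping the controls (0.12 ± 0.20, adjusted p 0.656). Irf7 was at -1.2, -0.62, -1.25 and 0.17 (0.63 ± 0.47, adjusted p 0.277). Irf9 was at 2.45, 2.22, 2.40 and 2.60, with array 4 alone above control array 3 (0.37 ± 0.17, adjusted p 0.0907). All 3 overlapped the controls. Stat2 was at 3.52, 2.21, 2.33 and 2.70 (-0.45 ± 0.40, adjusted p 0.375), Irf1 at 4.11, 3.64, 3.56 and 3.88 (-0.52 ± 0.21, adjusted p 0.0574), and Cxcl10 at 0.95, 1.09, 1.54 and 2.32 (0.81 ± 0.54, adjusted p 0.231). Irf1 did not overlap its controls, yet missed the threshold.

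The fall was led by Igtp (IRGM3), a GTPase that acts on pathogen vacuoles, at 3.36, 3.25, 3.11 and 3.91 in neo-liver against 4.09, 4.36 and 5.21 in control liver. The difference was -1.14 ± 0.31 (adjusted p 0.0084), and control array 3 stood well above the other controls. Without that array the difference was -0.82, adjusted p 0.0526. Iigp1 (-0.50 ± 0.17) and Irgm1 (-0.48 ± 0.14), of the same family, also fell. Both lost their call without control array 3 (Iigp1 -0.37, adjusted p 0.115, Irgm1 -0.36, adjusted p 0.074), and Iigp1 also without neo-liver array 2 or 3 and with the mean of its probes. With quantile normalization the calls of Igtp (-0.78, adjusted p 0.0674), Iigp1 (-0.18, adjusted p 0.434) and Irgm1 (-0.18, adjusted p 0.336) were all lost. The guanylate-binding proteins Gbp2 (0.56 ± 0.39) and Gbp3 (0.23 ± 0.42) were not called.

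Psmb9, an immunoproteasome subunit, was at 2.90, 3.19, 3.30 and 3.30 in neo-liver against 3.62, 4.0 and 4.38 in control liver, a difference of -0.83 ± 0.21 (adjusted p 0.00559). The Psmb9 call was lost with quantile normalization (-0.50, adjusted p 0.0757). Its partner Psmb8 was at 2.72, 2.44, 2.81 and 3.06, where arrays 1, 3 and 4 exceeded control array 1, and was not called (-0.56 ± 0.25, adjusted p 0.0793). The peptide transporter Tap1 differed by -0.32 ± 0.40 (adjusted p 0.525). Ifih1 (MDA5), a sensor of long double-stranded RNA, was nearly equal on the control arrays, at 2.04, 2.05 and 2.06, and lower on every neo-liver array, at 1.11, 1.26, 1.24 and 1.40. The difference was -0.80 ± 0.18 (adjusted p 0.00213). Ifi35 stood at 2.69, 2.66 and 2.72 in control liver and 1.66, 1.93, 2.21 and 2.11 in neo-liver (-0.71 ± 0.14, adjusted p 8.01e-04). Bst2 fell by less (-0.55 ± 0.18) and lost its call without control array 2 or 3 or neo-liver array 4 (-0.46 to -0.52, adjusted p 0.0501 to 0.0891). Quantile normalization also ended the Bst2 call (-0.13, adjusted p 0.555).

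Kidney RNA was present in neo-liver, and 5 of the 12 risers (Ifit2, Rsad2, Cmpk2, Samd9l and Ifi44) had their highest group mean in host kidney. With the estimated kidney share subtracted from each neo-liver array, 7 members rose and 11 fell against control liver. Cmpk2, Ifit2, Rsad2, Samd9l and Trim30a lost their calls, and Samd9l turned to -1.82. All genes moved down in this setting, with 10442 called against 7835 before and a median of -0.78 against -0.15. With the rest rescaled after subtraction, 12 rose, all 7 falls lost their call, and Gbp3 alone fell (-4.23 ± 0.94, adjusted p 0.00342). For Gbp3 and Samd9l, both highest in kidney, the subtracted signal did not stay below the whole signal on every neo-liver array. Their values after subtraction, in size and in sign, therefore do not measure a level. Quantile normalization gave 13 rises and 2 falls. Ifi27l2a, Ifi44, Oas1a, Oasl2, Ifit1, Xaf1 and Ubd rose in each of these 3 alternatives. Monocyte and neutrophil markers summed to 156 to 608 in neo-liver (6 of 8 higher than in control liver) and T and NK cell markers to 44.2 to 88.2, against 52.7 to 58.7 in control liver (2 higher, 4 lower, of 19). B and plasma cell markers summed to 4.06 to 15.2 (7 of 8 higher) and conventional dendritic cell markers to 2.69 to 4.29 (5 of 8 higher). Plasmacytoid dendritic cell markers summed to 361 to 412, against 310 to 333 in control liver (7 of 10 higher). These markers summed highest in host kidney, to 460 to 520, so kidney RNA and such cells cannot be told apart in this sum. The part of these cells in the result was not tested.

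**Figure D3:**
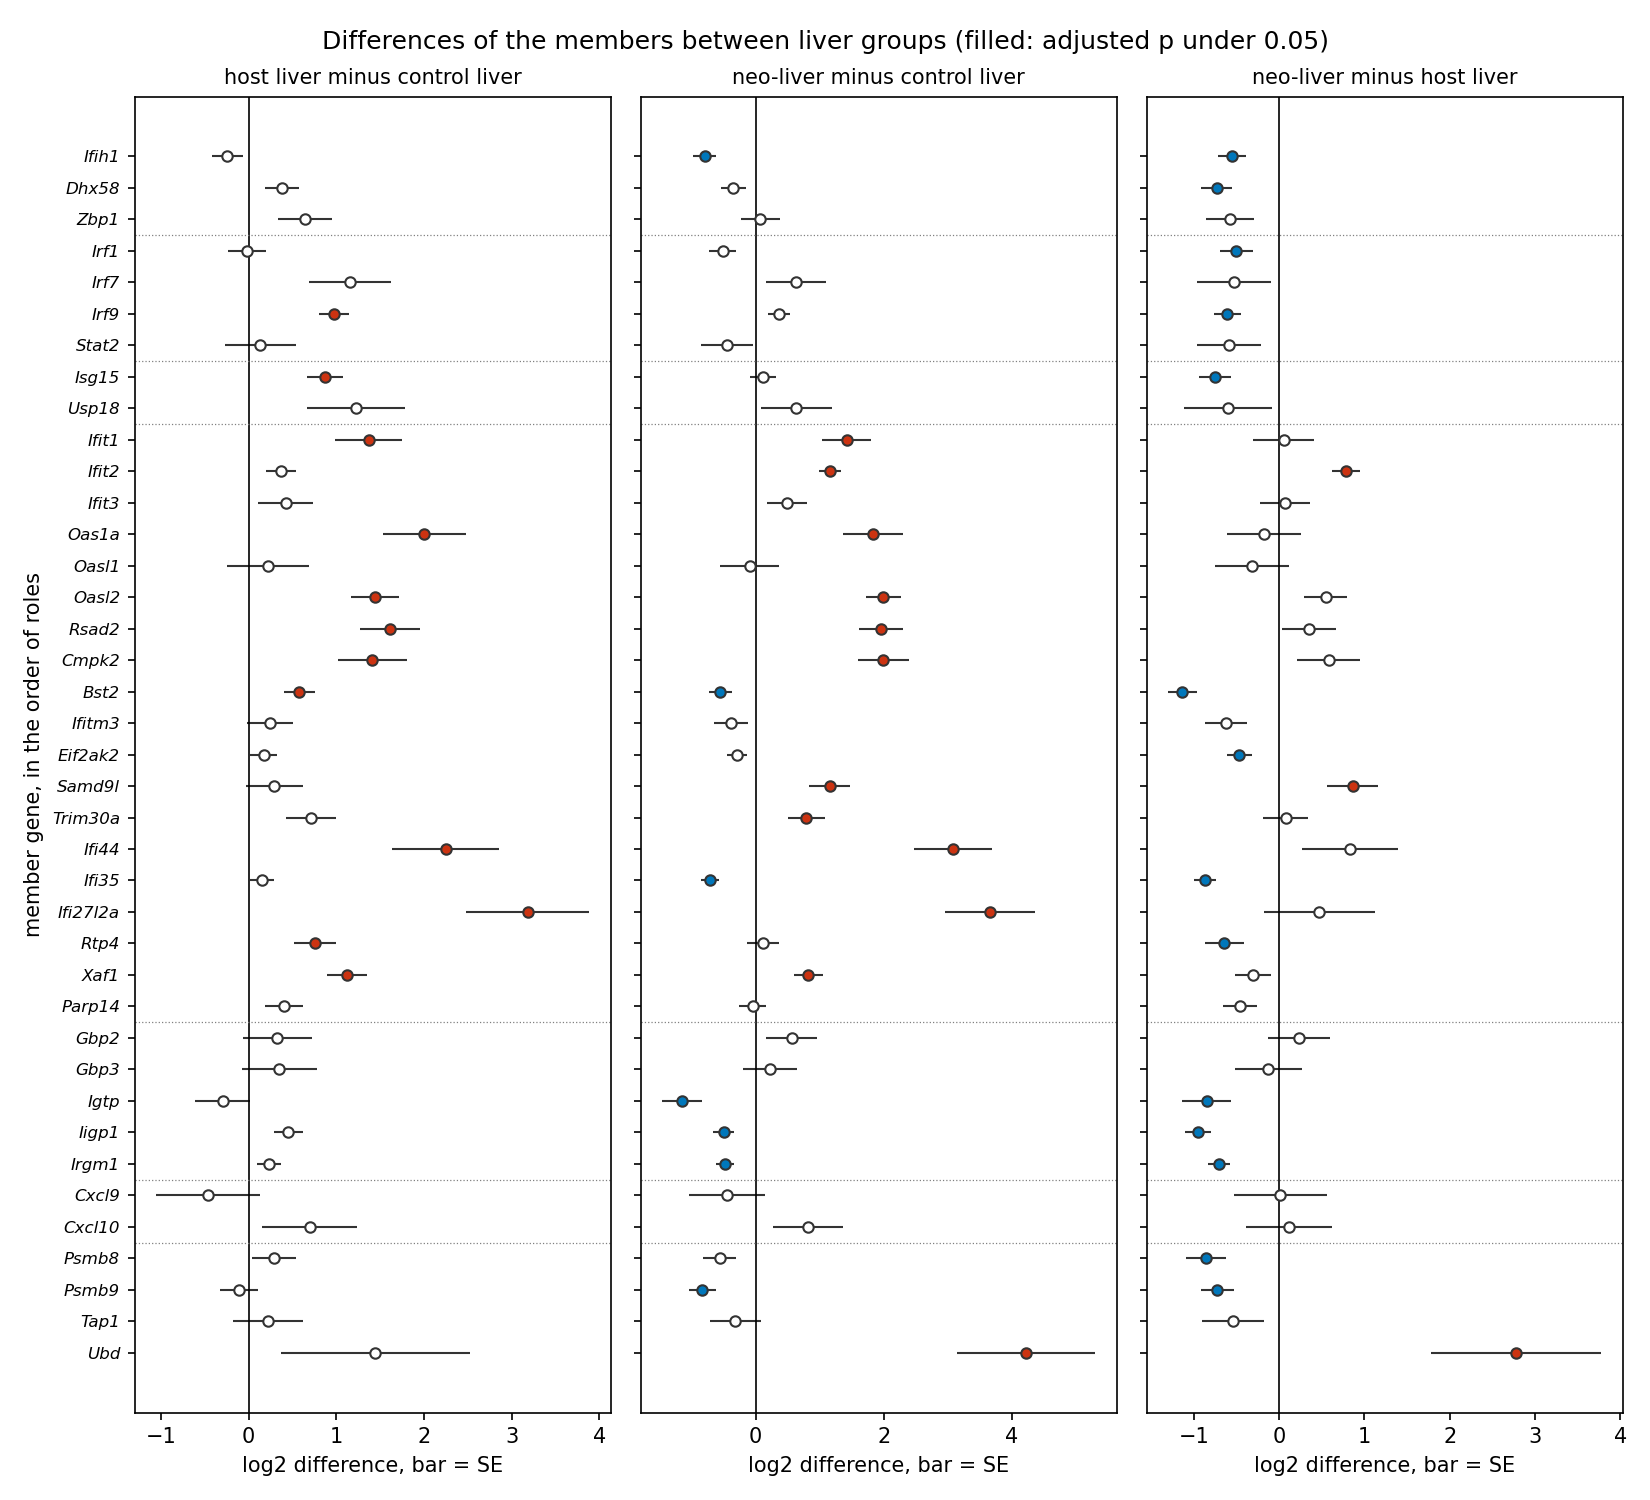
Difference of group means in log2 level (horizontal axis) with its SE for 39 members, ordered by role, in 3 comparisons; filled points passed an adjusted p of 0.05 (red higher, blue lower), and the scale differs between panels. Host liver has 12 filled points to the right and 0 to the left, neo-liver has 12 and 7 against control liver, and 3 and 14 against host liver.

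Against host liver, neo-liver was lower in 14 of 39 members and higher in 3. All genes were called lower in 31.5% and higher in 17.1%, and in either direction in 48.6%, so the share of members that fell (35.9%) was near that of all genes and says nothing particular about them. The median difference was -0.46 over the members (-0.14 without host liver array 4 and -0.30 without neo-liver array 1) and -0.21 over all genes. Of the 17 called members 9 had groups that did not overlap, where 72.6% of all called genes had such groups. Members of most roles fell: 2 of 3 sensors, 2 of 4 transcription factors, Isg15, 4 of 19 effectors, 3 of 5 GTPases and 2 of 4 antigen processing genes. The slides of these groups differ, and so do site, hepatocyte source and hepatocyte exposure to monocrotaline. Donor hepatocytes were placed after the last dose. These differences cannot be told apart here.

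Bst2 fell furthest. It was at 5.25, 6.04, 5.37 and 5.60 in host liver and 4.33, 4.58, 4.51 and 4.31 in neo-liver, a difference of -1.13 ± 0.17, or 2.19-fold lower (adjusted p 1.29e-04). All neo-liver arrays lay within a narrow band below the host arrays. Iigp1, which disrupts the vacuole of parasites and chlamydiae, was at 4.41, 4.22, 3.95 and 4.53 and 3.49, 3.11, 3.13 and 3.59, a difference of -0.95 ± 0.15 (adjusted p 2.61e-04). Ifi35 was at 2.62, 2.93, 2.78 and 3.04 in host liver, above each neo-liver array (-0.87 ± 0.13, adjusted p 1.27e-04). Psmb8, at 3.70, 3.41, 3.53 and 3.81 in host liver, also did not overlap (-0.85 ± 0.23, adjusted p 0.00913). Dhx58 (-0.73 ± 0.18), Psmb9 (-0.72 ± 0.20), Irgm1 (-0.71 ± 0.13) and Irf9 (-0.61 ± 0.16) were the other members that fell without overlap.

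Isg15 fell too (-0.75 ± 0.19, adjusted p 0.00575), although neo-liver array 4 just exceeded host array 3. Its call was lost with quantile normalization (-0.44, adjusted p 0.0966) and with the kidney share removed and the rest rescaled (-0.36, adjusted p 0.192). The falls of Psmb8, Psmb9, Irf9, Ifih1, Igtp, Rtp4 and Irf1 were lost in the same 2 settings, and those of Dhx58 and Eif2ak2 with rescaling. Igtp (-0.85 ± 0.29), Rtp4 (-0.64 ± 0.23), Ifih1 (-0.55 ± 0.16), Eif2ak2 (PKR, -0.46 ± 0.14) and Irf1 (-0.50 ± 0.20) fell with overlapping groups. The Irf1 call was lost in 19 of 28 alternatives, among them the fit with array number as a fixed block (adjusted p 0.0863). Igtp was lost without neo-liver array 1, 2 or 3 or host array 1 or 4 (-0.83 to -0.72, adjusted p 0.0546 to 0.0777), and Rtp4 without neo-liver array 2 or 3 or host array 1 or 4 (-0.63 to -0.46, adjusted p 0.0617 to 0.0971). Eif2ak2 was lost without host array 4 (-0.34, adjusted p 0.0504). Irf7 (-0.53 ± 0.43, adjusted p 0.331), Stat2 (-0.58 ± 0.37, adjusted p 0.215) and Cxcl10 (0.12 ± 0.50, adjusted p 0.863) were not called. With array number as a random block, 4 rose and 17 fell. Oasl2 (0.55 ± 0.19, adjusted p 0.0242) was added to the rises, and Ifitm3 (-0.63 ± 0.19, adjusted p 0.0114), Parp14 (-0.46 ± 0.16, adjusted p 0.0226) and Zbp1 (-0.57 ± 0.21, adjusted p 0.0336) to the falls.

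The 3 members that rose were Ifit2, Samd9l and Ubd. Ifit2, an RNA-binding relative of Ifit1, was at -2.56, -2.36, -2.79 and -2.08 in host liver and -1.59, -1.87, -1.51 and -1.67 in neo-liver without overlap, a rise of 0.79 ± 0.16 (adjusted p 0.00155). Samd9l (0.86 ± 0.30, adjusted p 0.0295) and Ubd (2.78 ± 1.00, adjusted p 0.034) overlapped. Samd9l lost its call without neo-liver array 1 or 2 or host array 2 or 3 (0.63 to 0.86, adjusted p 0.0552 to 0.0919), and Ubd without neo-liver array 2, 3 or 4 or host array 1 or 4 (2.03 to 2.86, adjusted p 0.0538 to 0.0997). Both Ifit2 and Samd9l were also higher in host kidney, and with the kidney share subtracted their differences turned to -0.028 and -2.11. The Samd9l value has the limit given above, as the subtracted signal did not stay below its whole signal on every array. Ubd stayed higher in both kidney alternatives. With the rest rescaled, 5 members fell, Gbp3 among them, whose value has the limit given for Samd9l. With quantile normalization 2 rose and 6 fell. Macrophage and Kupffer cell markers summed to 141 to 225 in neo-liver and 222 to 398 in host liver (0 higher, 4 lower, of 14), and their part in the falls was not tested.

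Most members were lower in the kidney than in either liver tissue. Against host kidney, 26 of 39 rose in neo-liver (66.7%, against 23.2% of all genes) and 2 fell (5.13%, against 29.5%), with 52.7% of all genes called in either direction and a median of 1.49 (-0.09 over all genes). In host liver, 27 were higher than in host kidney (69.2%, against 39.6%) and 6 lower (15.4%, against 31.2%), with 70.8% of all genes called and a median of 1.99 (0.14 over all genes). All 3 sensors and 4 transcription factors were higher in both tissues, as were 3 of 5 GTPases and Cxcl9. The comparisons share the kidney arrays. Since no other tissue was on the slide of the kidney arrays, an effect of slide cannot be told apart from one of tissue here.

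The chemokine Cxcl9, a classical target of interferon gamma, had the widest difference among the probes used here. It was at -5.02, -3.53, -4.44 and -3.06 in host kidney, 0.45, 0.87, 0.27 and 1.79 in neo-liver, 0.50, 1.01, 0.38 and 1.41 in host liver and 0.10, 1.05 and 2.72 in control liver. No kidney array came near the liver tissues, and the 3 liver groups overlapped. Neo-liver exceeded kidney by 4.86 ± 0.55 or 29.0-fold (adjusted p 7.49e-06) and host liver by 4.84 ± 0.55 (adjusted p 2.98e-06). Cxcl10, at -0.47, -0.17, 0.42 and 1.16 in kidney, overlapped both and was not called (1.24 ± 0.50, adjusted p 0.0531, and 1.12 ± 0.50, adjusted p 0.0606). With the array number as a random block, both differences were called (adjusted p 0.0122 and 0.016).

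Bst2 was at 1.22, 1.05, 1.07 and 1.43 in kidney, and its control liver levels were 4.72, 5.06 and 5.17. Neo-liver was 3.24 ± 0.17 and host liver 4.37 ± 0.17 above kidney (adjusted p 2.04e-09 and 3.54e-11). Ifitm3, which blocks viral entry at endosomes, was at 2.34, 2.42, 2.43 and 2.74 in kidney, 5.90, 5.57, 5.25 and 6.07 in neo-liver, 6.64, 6.39, 5.52 and 6.74 in host liver and 5.84, 6.18 and 6.21 in control liver. The liver groups overlapped and the kidney stood apart, by 3.21 ± 0.25 from neo-liver and 3.84 ± 0.25 from host liver (adjusted p 1.56e-07 and 8.39e-09). Iigp1 was at 0.63, 0.78, 0.78 and 0.81 in kidney and 3.64, 3.77 and 4.09 in control liver, with differences of 2.58 ± 0.15 and 3.53 ± 0.15 (adjusted p 9.46e-09 and 1.32e-10). Another probe of Iigp1 gave 5.40 and 6.65, wider than Cxcl9, for which another probe gave 3.68 and 3.52.

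Oasl1 was at -1.2, -0.89, -0.56 and -0.37 in kidney, 1.93, 2.19, 2.02 and 2.92 in neo-liver, 3.0, 2.91, 0.98 and 3.45 in host liver and 2.70, 2.30 and 2.07 in control liver. The differences from kidney were 3.02 ± 0.43 for neo-liver and 3.34 ± 0.43 for host liver (adjusted p 5.81e-05 and 1.01e-05). Dhx58 (LGP2), a sensor without signalling domains of its own, was at -3.36, -3.10, -3.21 and -2.68 in kidney, 0.39, 0.08, -0.32 and 0.39 in host liver, -0.72, -0.55, -0.77 and -0.34 in neo-liver and -0.09, -0.38 and -0.26 in control liver, 2.49 ± 0.18 and 3.22 ± 0.18 above kidney (adjusted p 8.73e-08 and 2.03e-09). In these genes no kidney array reached a liver array.

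The transcription factors, Isg15 and Psmb8 were likewise lowest in kidney. In kidney Isg15 was at 1.32, 1.30, 1.09 and 1.74, Irf7 at -3.12, -2.44, -2.79 and -2.06 and Irf9 at 1.33, 1.21, 1.44 and 1.61. Stat2 was at 0.82, 1.04, 1.12 and 0.97, Irf1 at 1.83, 1.99, 2.49 and 2.47 and Psmb8 at 0.38, 0.68, 1.22 and 1.14. None of these 6 overlapped neo-liver or host liver. Neo-liver exceeded kidney by 1.02 ± 0.16 (Irf9) to 1.90 ± 0.23 (Psmb8), and host liver by 1.63 ± 0.16 (Irf9) to 2.76 ± 0.23 (Psmb8).

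A few members were highest in kidney. Samd9l, a regulator of translation and endosomal traffic, was at 3.44, 3.82, 3.28 and 3.49 in host kidney, 2.17, 2.83, 1.83 and 1.74 in neo-liver, 1.39, 0.88, 0.67 and 2.19 in host liver and 1.03, 0.97 and 0.96 in control liver. Every kidney array was above every array of the other groups. The difference from kidney was -1.36 ± 0.30 for neo-liver and -2.23 ± 0.30 for host liver (adjusted p 0.00182 and 1.57e-05). The guanylate-binding protein Gbp3 was at 3.07, 3.19, 2.76 and 3.64 in kidney, 0.91, 0.88, 0.57 and 1.87 in neo-liver, 1.30, 0.80, 0.63 and 1.99 in host liver and -0.04, 0.84 and 1.69 in control liver. The differences were -2.11 ± 0.39 and -1.98 ± 0.39 (adjusted p 5.35e-04 and 4.73e-04), and the 3 liver groups overlapped. Host liver was also below kidney in Ifit2, at -1.31, -1.30, -1.75 and -1.14 in kidney (-1.07 ± 0.16, adjusted p 4.68e-05), and Cmpk2, at -0.66, -0.77, -0.66 and -0.71 (-1.09 ± 0.37, adjusted p 0.0165). Cmpk2 lost this call without host liver array 1 or 3 (-0.88 and -0.87, adjusted p 0.0538 and 0.0561). The probes of Cmpk2 disagreed in sign between neo-liver and kidney, where it was not called. Rsad2 (-0.87 ± 0.32) and Ifi44 (-1.39 ± 0.56) overlapped. Rsad2 lost its call without host liver array 2 or 3 or kidney array 1 (-0.83 to -0.66, adjusted p 0.0514 to 0.0816) and Ifi44 without any one of host liver arrays 1 to 3 or any kidney array (-1.42 to -0.87, adjusted p 0.0647 to 0.139).

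Of the 33 members called between host liver and host kidney, 29 (87.9%) had a neo-liver mean between those of the organs, against 80.3% of all genes so called. The exceptions were Cxcl9, Gbp3, Ifit1 and Trim30a. Macrophage and Kupffer cell markers summed to 40.1 to 45.5 in host kidney, 141 to 225 in neo-liver and 222 to 398 in host liver, with Clec4f, Timd4 and Cd163 below background on all kidney arrays. T and NK cell markers summed to 21.8 to 29.7 in kidney, 44.2 to 88.2 in neo-liver and 52.8 to 58.9 in host liver. Their part in the differences from kidney was not tested. Against kidney, neo-liver lost the call of Ubd (2.80 ± 1.00) without neo-liver array 3 or 4 or kidney array 1 or 2 (2.22 to 2.72, adjusted p 0.0603 to 0.0947) and that of Ifit1 (1.14 ± 0.36) without neo-liver array 4 (0.90, adjusted p 0.0533). With array number as a random block 31 members rose and 2 fell in neo-liver against kidney, Cxcl10, Eif2ak2, Gbp2, Oasl2 and Usp18 being added. In host liver 29 rose and 6 fell, with Cxcl10 and Gbp2 added.

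The other members had the following levels. Xaf1 was at -0.43, -0.23 and -0.16 in control liver, 0.94, 0.96, 0.16 and 1.34 in host liver, 0.52, 0.47, 0.27 and 0.94 in neo-liver and -1.08, -0.81, -1.02 and -0.85 in kidney, so that host liver and neo-liver lay above the controls and the kidney below. Zbp1, a sensor of Z-form nucleic acid that can start necroptosis, was at 0.17, 0.76 and 1.25 in control liver, 1.73, 1.2, 0.64 and 1.92 in host liver, 0.85, 0.59, 0.49 and 1.27 in neo-liver and -1.64, -1.66, -1.78 and -1.43 in kidney, the liver groups overlapping. Irgm1, which controls the other immunity-related GTPases, was at 3.33, 3.45 and 3.73 in control liver, 3.83, 3.79, 3.45 and 3.88 in host liver, 3.02, 3.09, 2.83 and 3.19 in neo-liver and 2.29, 2.60, 2.61 and 2.49 in kidney. Its narrow ranges set neo-liver between kidney and the livers. Gbp2 was at -0.03, 0.48 and 1.42 in control liver, 0.68, 0.61, 0.90 and 1.62 in host liver, 0.91, 0.86, 0.78 and 2.18 in neo-liver and -0.18, 0.35, 0.35 and 0.66 in kidney, with array 4 far above the rest of neo-liver and no call in any of the 5 comparisons.

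Parp14, an ADP-ribosyltransferase, was at 2.01, 2.24 and 2.49 in control liver, 2.69, 2.46, 2.48 and 2.99 in host liver, 2.18, 1.91, 2.11 and 2.60 in neo-liver and 0.18, 0.51, 0.95 and 0.91 in kidney, which stood apart. Tap1 was at -0.85, -0.52 and 0.18 in control liver, -0.68, -0.05, 0.07 and -0.02 in host liver, -1.59, -0.71, -0.22 and -0.34 in neo-liver and -3.05, -2.36, -1.39 and -2.16 in kidney, with array 1 lowest in each host tissue. Usp18 was at -1.36, -1.24 and -1.16 in control liver, -0.91, 0.34, -1.05 and 1.52 in host liver, -1.5, -0.85, -0.72 and 0.59 in neo-liver and -1.94, -1.54, -1.75 and -1.34 in kidney. Its host tissues had array 4 on top throughout. Eif2ak2, the kinase that halts translation on double-stranded RNA, was at 0.73, 0.54 and 0.54 in control liver, 0.67, 0.62, 0.67 and 1.14 in host liver, 0.14, 0.20, 0.29 and 0.62 in neo-liver and -0.20, 0.09, 0.15 and 0.10 in kidney, its host liver array 4 and kidney array 1 standing off from the rest of their groups. Ifit3 was at 0.10, -0.01 and 0.04 in control liver, 0.39, 0.85, -0.11 and 0.75 in host liver, 0.20, 0.67, 0.36 and 0.92 in neo-liver and 1.03, 0.61, -0.47 and 0.74 in kidney, and like Gbp2 it gave no call in any comparison.

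The members varied together within groups, by array number. Same-numbered arrays of the 3 host tissues were taken to come from the same mouse, which the labels do not state. Array 4 was the highest of its tissue for 31 of 39 members in host liver, 30 in neo-liver and 23 in host kidney, whereas it was the highest for 18.2%, 19.1% and 16.4% of all genes. Its median deviation from the tissue mean was 0.42, 0.38 and 0.27 over the members, and near 0 over all genes. Array 3 was the lowest for 29 of 39 members in host liver (26.9% of all genes) and 17 in neo-liver (21.5%), and kidney array 1 for 25 (25.4%).

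For 19 members number 4 was highest in all 3 tissues, against 2.58% of all genes. They were Cxcl9, Cxcl10, Dhx58, Gbp2, Gbp3, Ifih1, Ifit1, Ifitm3, Igtp, Iigp1, Irf7, Irf9, Isg15, Oas1a, Oasl1, Oasl2, Rtp4, Usp18 and Zbp1. They include sensors, factors, effectors, GTPases and both chemokines. None of the 4 antigen processing genes was among them. Tap1 and Ubd were highest on number 3 in all 3 tissues, and Cxcl10, Psmb9, Tap1 and Ubd were lowest on number 1 in all 3. Gbp3, Oas1a and Zbp1 were lowest on number 3 in all 3. Over the members, the correlation of deviations between same-numbered arrays of different tissues had a median of 0.41 over 12 pairs (-0.12 to 0.87), and -0.19 over 36 pairs of different numbers. Deviations cancel out over the arrays of a tissue, so positive values for same numbers bring negative ones for different numbers. The value of -0.19 is therefore not a separate result. The correlations are across genes, which are not independent replicates, and same-numbered arrays may share an animal.

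Macrophage and Kupffer cell markers on array 4 summed to 365 in host liver, where array 1 had 398, to 210 in neo-liver, where array 1 had 225, and to 45.5 in host kidney, the highest of a range that began at 40.1. T and NK cell markers on array 4 summed to 58.9 in host liver, the highest of a range that began at 52.8, to 56.0 in neo-liver, where array 1 had 88.2, and to 22.3 in host kidney, where array 2 had 29.7. B and plasma cell markers on array 4 summed to 3.07 in host liver, the lowest of that tissue, and were second highest in neo-liver (9.66, where array 1 had 15.2) and in host kidney (15.5, where array 3 had 23.6). The kidney share of neo-liver array 4 was 32.5%, below the 49.3% of array 2. The part of cell makeup in the order of the arrays was not tested.

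**Figure D4:**
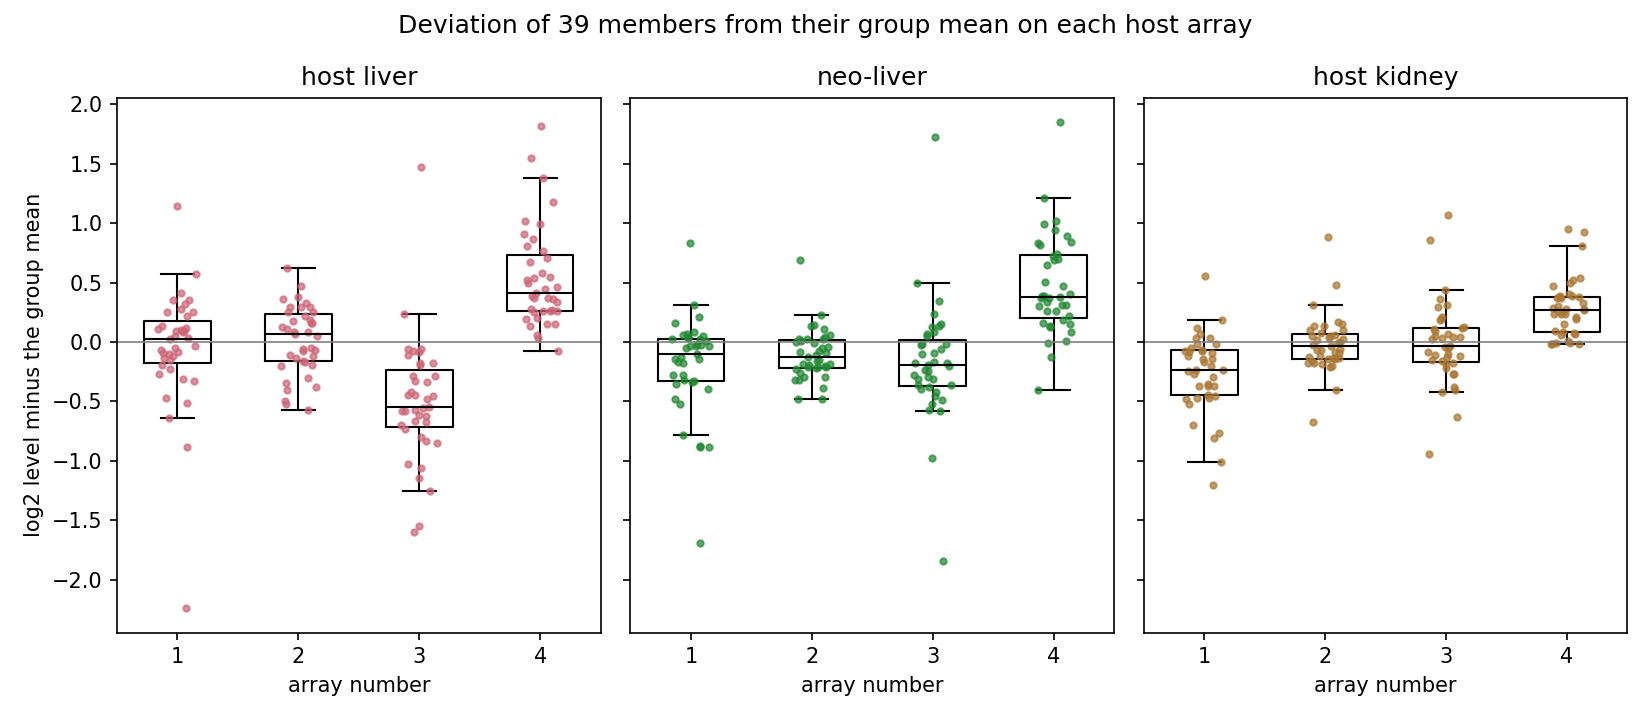
Deviation of each of 39 members from the mean of its tissue in log2 level (vertical axis) by array number (horizontal axis) in host liver, neo-liver and host kidney; points are members, boxes span the quartiles with the median as a line, and whiskers reach the farthest member within 1.5 box lengths. The box of number 4 lies above 0 in each tissue, with medians of 0.42, 0.38 and 0.27, and that of number 3 in host liver lies below, at -0.55.

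The 3 control livers also differed among themselves. Control array 3 was the highest for 30 of 39 members (30.4% of all genes) and array 1 the lowest for 32 (31.5%). All 4 transcription factors, 5 GTPases, 2 chemokines and 4 antigen processing genes were highest on array 3 and lowest on array 1. Cxcl9 stood at 0.10, 1.05 and 2.72, Igtp at 4.09, 4.36 and 5.21 and Psmb8 at 2.72, 3.49 and 3.76 on control arrays 1 to 3. Effectors divided, with 11 of 19 highest on array 3 and 5 on array 1. The control spread was far narrower for Rsad2, Oasl2 and Ifih1 than for the chemokines. Without control array 3, 14 members rose and 3 fell in neo-liver against control liver. Without control array 1, 8 rose in host liver against control liver. T and NK cell markers on control arrays 1 to 3 summed to 52.7, 58.7 and 55.9, and macrophage and Kupffer cell markers to 158, 264 and 261.

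Of the interferon genes themselves, Ifnb1 was well above background on 0 of 15 arrays and Ifna4 on 0 of 15, so neither was tested. Of the 16 interferons and receptors listed, 12 were tested. Interferon genes other than Ifng were therefore among those that passed the filter, and their levels are not given here. Ifng was well above background on 9 of 15 and was not called in any comparison. Its levels were -5.82, -4.33 and -3.17 in control liver, -4.95, -5.66, -4.84 and -4.43 in host liver, -4.44, -4.65, -4.75 and -4.05 in neo-liver and -7.24, -5.93, -5.16 and -4.96 in host kidney. These levels are low on every array. In control liver Ifng was, like the chemokines, lowest on array 1 and highest on array 3.

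The receptor chain Ifnar2 stood at 3.63, 3.71 and 3.6 in control liver, 4.0, 4.47, 4.76 and 3.96 in host liver, 3.23, 3.37, 3.82 and 3.15 in neo-liver and 1.48, 1.88, 1.82 and 1.71 in kidney. It was higher in host liver than in control liver (0.65 ± 0.20, adjusted p 0.0337), lower in neo-liver than in host liver (-0.90 ± 0.19, adjusted p 0.00165), and lowest in kidney. Ifngr2, the signalling chain of the gamma receptor, stood at 1.38, 1.22 and 1.22 in control liver and 1.59, 2.19, 2.83 and 2.26 in host liver. It showed the same order, with 0.95 ± 0.29 (adjusted p 0.0287) for host over control liver and -0.68 ± 0.26 (adjusted p 0.0479) for neo-liver minus host liver. Against control liver, the Ifnar2 call was lost without any control array or host liver array 2 or 3 (0.49 to 0.68, adjusted p 0.0641 to 0.0963) and that of Ifngr2 without any control array or host liver array 3 or 4 (0.74 to 1.0, adjusted p 0.0577 to 0.0849). The fall of Ifngr2 in neo-liver lost its call without any array but neo-liver array 3, host liver array 1 and kidney array 3 (-0.73 to -0.47, adjusted p 0.0514 to 0.146). The chains Ifnar1 and Ifngr1 differed by at most 0.46 in size in any comparison, with calls for Ifnar1 between host liver and kidney (0.41) and Ifngr1 between neo-liver and kidney (0.46). The Ifngr1 call was lost without any of 11 of the 15 arrays, the exceptions being neo-liver array 2, host liver array 2, control array 1 and kidney array 3.

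The lambda receptor Ifnlr1, an epithelial receptor, was below background on every array of host and control liver and was measured in neo-liver at -1.37, -1.79, -1.42 and -1.81 and in kidney at -0.14, -0.25, 0.22 and -0.34. Neo-liver was at least 5.09-fold above host liver (adjusted p 2.60e-06), a bound that takes the lowest signal called above background on each dim array. Against kidney the difference was -1.47 ± 0.25 (adjusted p 3.13e-04), and the groups did not overlap. With the kidney share subtracted, neo-liver was 0.58 above host liver without a call (adjusted p 0.365).

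The rest of the pathway was counted in 4 lists. Of 74 other interferon-stimulated genes tested of 92 listed, 11 rose (14.9%, against 13.4% of all genes) and 2 fell (2.7%, against 11.2%) in host liver against control liver. In neo-liver against control liver 11 rose (14.9%, against 20.4%) and 17 fell (23%, against 29.8%), both shares being below those of all genes. In neo-liver against host liver 3 rose (4.05%, against 17.1%) and 33 fell (44.6%, against 31.5%). Against kidney, 46 rose (62.2%, against 23.2%) and 5 fell (6.76%, against 29.5%) in neo-liver, and 51 rose (68.9%, against 39.6%) and 7 fell (9.46%, against 31.2%) in host liver. Oas2, a further oligoadenylate synthetase, was at -1.37, -1.15 and -0.68 in control liver and 1.5, -0.16, -0.40 and 1.11 in host liver, a rise of 1.58 ± 0.51 (adjusted p 0.0391). Gbp6 rose by 1.66 ± 0.56 (adjusted p 0.0464) in the same comparison. Oas2 lost its call without any control array, host liver array 1 or 4 or kidney array 2 (1.25 to 1.77, adjusted p 0.0502 to 0.13), and Gbp6 without any array but neo-liver array 4, host liver array 3 and kidney array 1 (1.2 to 1.96, adjusted p 0.0503 to 0.163). Against kidney the largest rises were of Apol9b, Apol9a and Gch1, the last making tetrahydrobiopterin, by 8.09, 6.82 and 6.60 in host liver and 6.55, 5.35 and 5.46 in neo-liver.

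Of 15 signal transducers and regulators, 3 rose (20%, against 13.4% of all genes) and 0 fell (against 11.2%) in host liver against control liver. The risers were Irf3, Jak2 and the phosphatase Ptpn6, by 0.58, 0.35 and 0.59, the call of Jak2 being lost without any array but neo-liver arrays 1 and 3 and host liver arrays 2 and 3. In neo-liver against host liver 0 rose (against 17.1%) and 6 fell (40%, against 31.5%), led by Irf2 (-1.01 ± 0.13, adjusted p 4.81e-05), a factor that competes with IRF1. Of 19 sensors and adaptors tested of 20, 4 rose and 4 fell (21.1% each, against 13.4% and 11.2% of all genes) in host liver against control liver, with Ikbke, a kinase that activates IRF3, at -1.11, -1.29 and -0.90 in control liver and -0.51, 0.85, 1.37 and 0.47 in host liver (1.65 ± 0.38, adjusted p 0.00755). In neo-liver against host liver 1 rose (5.26%, against 17.1%) and 6 fell (31.6%, against 31.5%), with Tlr9 (-1.05 ± 0.10) and Mavs (-0.66 ± 0.13) among those that fell. Of 12 interferons and receptors tested of 16, 4 rose (33.3%, against 13.4% of all genes) and 2 fell (16.7%, against 11.2%) in host liver against control liver.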

How the data were processed

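RNA of 15 tissues was hybridised to one-colour Agilent arrays, 1 sample an array. The deposited scanner files hold spot intensity, read as background-subtracted processed signal by Feature Extraction 10.10.1.1 with the protocol GE1_1010_Sep10 and mm9 array annotation, per the file headers. A deposited table holds log2 values, whose scale its source does not state; they lay within 0.01 of log2 processed signal minus a constant per array for 99.8% of probes, and served as an alternative only. The authors' normalization is otherwise not stated in those headers or labels.

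Levels were log2 processed signal minus the 75th percentile of the array. Of 55681 probes, 34992 were well above background on every array of at least 1 group, 20391 of these had a symbol through RefSeq accession, and the probe of the highest mean stood for each of 15622 genes. One mean per group was fitted over all arrays with limma 3.58.1 (R 4.3.3), and p-values were adjusted by Benjamini-Hochberg over all genes in each comparison. The precision is limited by 3 or 4 arrays a group. On simulated data with 200 changed genes, the fit recovered 58.5%, 52.5% and 61% of changes of log2 1 and 83.5%, 80% and 84.5% of log2 2 for neo-liver minus host liver, control liver and host kidney. In the data 7591, 7835 and 8230 genes were called in these comparisons, where the adjustment is less strict. The simulated rates therefore do not give the recovery in the data.

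The host arrays were checked for pairing by number. Deviations from group means of same-numbered arrays of different tissues correlated at 0.179 to 0.577 over all genes in 12 of 12 pairs. Different-numbered arrays correlated at -0.402 to 0.0841. Deviations cancel out over the arrays of a tissue, so low values for different numbers follow from positive ones for same numbers. The numbers were taken as mice from the same-numbered values and the shared numbering of the labels. Fits with the number as a block were an alternative. Kidney share was the median over 29 kidney markers of the position of an array, on the linear scale, between the means of control liver and host kidney. Alternatives were these deposited values, quantile normalization, median centring, normexp background, other filters and probe rules, each pair of groups alone, slides and numbers as blocks, leaving out each array, and subtracting the kidney share. Its rescaled form was chosen after seeing the data.

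Members and lists were chosen with earlier results of these data known. Members described first were, per comparison, the 6 called rises and 4 called falls of largest size with groups that did not overlap, plus Isg15, Irf7, Irf9, Stat2, Irf1, Cxcl10 and Psmb8. Of other pathway genes, receptor chains, Ifnb1 and Ifng and at most 3 called genes a list and comparison were named; Ifna4 was added after its values were seen. One further gene is not reported here. Near-identical copies (Oas1a, Ifit1 and Ifit3, Ifi27l2a, Iigp1, Trim30a, Apol9a and Apol9b, and the guanylate-binding proteins) may share probe signal. Promoters came from RefSeq (GRCm38.p6).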

Additional observations from a re-analysis of the deposited data

Results flagged for a closer look

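In 6 of 117 tests of a member within a group of 4 arrays, 1 array stood apart from the other 3 by Dixon's 95% criterion, a rate that chance gives in about 1 in 20. Gbp2 was at 2.18 on neo-liver array 4 and at 0.78 to 0.91 on the others. Eif2ak2 was at 1.14 on host liver array 4 and at 0.62 to 0.67 on the others. Tap1 was at -0.68 on host liver array 1 and at -0.05 to 0.07 on the others. Ifit1 was at -1.35 on host kidney array 4 and at -1.73 to -1.71 on the others. Eif2ak2 was at -0.20 on host kidney array 1 and at 0.09 to 0.15 on the others. Iigp1 was at 0.63 on host kidney array 1 and at 0.78 to 0.81 on the others. The 3 high arrays all carried the number 4 and the 3 low ones the number 1.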

How the results depend on the processing

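No member called in a comparison changed direction under quantile normalization, median centring, normexp, other filters, other probe rules or the deposited values. The 5 reversals all came from removing the kidney share from neo-liver: against host liver, Ifit2 went to -0.028 and Samd9l to -2.11 on subtraction and Samd9l to -1.70 with the rest rescaled, and against control liver Samd9l went to -1.82 and -1.41. The Samd9l values do not measure a level, because the subtracted signal did not stay below its whole signal on every neo-liver array. In neo-liver against host liver, 1 member rose in both of these settings, 17 fell on subtraction, 5 fell with the rest rescaled, and quantile normalization left 6 falls and 2 rises. Over all genes in that comparison, subtraction gave 10997 calls against 7591 before, with a median of -0.85. Rescaling gave 5763 calls over all genes and a median of -0.32. In neo-liver against control liver, subtraction gave 7 rises and 11 falls, rescaling 1 fall, and quantile normalization 13 rises and 2 falls. Gbp3 was among the falls counted after subtraction and after rescaling in both comparisons, and its values do not measure a level either. Host liver against control liver kept 7 rises in a fit of the 2 groups alone. The causes were not tested, other than that these settings change the neo-liver values or the number of arrays. The median over all genes for neo-liver minus host liver was -0.21, -0.07 with quantile normalization and -0.33 with median centring, and for host liver minus host kidney 0.14, -0.05 and 0.27. The median over the members for neo-liver minus host liver went from -0.46 to -0.22 with quantile normalization, -0.67 on subtraction and -0.12 with the rest rescaled, and for neo-liver minus control liver from 0.12 to 0.31, -0.049 and 0.50, with 0.04 on median centring and 0.23 with the mean of all probes.

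Leaving out single arrays gave, for neo-liver against host liver, 1 (without neo-liver array 2) to 5 rises (without host liver array 4) and 10 to 18 falls. Against control liver, neo-liver had 11 to 14 rises and 3 (without control array 3) to 8 falls, and host liver 8 (without control array 1) to 16 rises (without host liver array 3) and 0 falls. Against host kidney, neo-liver had 24 to 28 rises and 2 to 3 falls, and host liver 27 to 28 rises and 3 (without host liver array 3) to 6 falls.

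With the replicate number as a block, random over all arrays, neo-liver had 4 rises and 17 falls against host liver, 31 and 2 against host kidney and 12 and 7 against control liver, and host liver 29 and 6 against host kidney. A fixed block over the host arrays gave the same counts in the comparisons among host tissues, with Tap1 called lower in neo-liver than in host liver (-0.54 ± 0.16, adjusted p 0.0203) in place of Irf1. The calls added by the random block stand beside the results, and the block changed the call of no other member. Ubd, below background on 1 host liver and 1 control array, is the member least well measured.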
